A study of Mus musculus with 6 samples.

Results

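Genes of the epithelial-mesenchymal transition were examined in sorted cells of mouse small-cell lung cancer: the transcription factors Zeb1, Zeb2, Snai1, Snai2 and Twist1, the epithelial adhesion genes Cdh1 and Epcam, and the mesenchymal genes Cdh2, Vim and Fn1. They were taken by name and by no cut on their values, though earlier results of these data were known. A gene was used where the array annotation gives at least 1 row to that gene alone. This held for 9 of the 10 genes, which have 12 rows, among 22179 genes measured in all. Rows naming Zeb2 also name another gene, so Zeb2 was not analysed here. Where a gene has several rows, its main value comes from the row whose mean across the arrays was highest.

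In this model a conditional Rb/p53/p130 triple knockout is induced in the lung by intratracheal Adeno-Cre, and the mice also carry a GFP reporter for Hes1, a repressor induced by Notch signalling. Tumours were taken 5 to 6 months after Cre, and pooled tumours (pools from 3 mice, per the labels) were sorted by FACS into GFP-negative and GFP-high cells. All samples come from mice with these conditional alleles, Adeno-Cre and the reporter, and the groups differ in the level of GFP. There were 3 GFP-negative and 3 GFP-high samples, each hybridised to 1 Affymetrix Mouse Gene ST array. They are labelled biological replicates, but nothing says whether each came from its own pool, so p-values measure the spread between these samples. The sources used here do not give strain, age at induction, the promoter driving Cre in the virus or the gates of the sort. In bulk samples such as these, fewer cells of a type and less RNA per cell cannot be told apart.

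During an epithelial-mesenchymal transition, epithelial cells loosen their junctions and take on a motile, matrix-producing state. Zeb, Snai and Twist factors bind E-box sequences and repress epithelial genes such as Cdh1, which encodes E-cadherin, and Cdh2 (N-cadherin), Vim (vimentin) and Fn1 (fibronectin) commonly rise. The exchange of E-cadherin for N-cadherin is called the cadherin switch. Cdh2 is also a normal adhesion molecule of neurons, and small-cell lung cancer is a neuroendocrine tumour with many neuronal genes.

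Hes1 was higher in GFP-high cells by 3.54 ± 0.13 (log2 fold change ± SE, n = 3 per group; limma, Benjamini-Hochberg adjusted p = 4.87e-07), which follows the sort. Neuroendocrine markers averaged log2 values of 9.99 to 10.09 in GFP-negative and 7.44 to 8.40 in GFP-high arrays, and all 8 measured were lower in GFP-high cells (median log2 fold change -2.34). Alveolar and club markers of normal lung epithelium were higher in GFP-high cells: 9 of 10 alveolar type 2, 10 of 10 alveolar type 1 and 8 of 10 club and secretory markers, with medians of 3.998, 1.83 and 4.48. Of 7 measured ciliated cell markers 1 was higher (Dynlrb2, 3.10), 2 were lower (Rsph1, -0.59, and Tppp3, -0.79) and 4 did not pass (median -0.24). Averaged over its genes, the alveolar type 2 list read 5.93 to 6.36 in GFP-negative and 9.54 to 9.98 in GFP-high arrays, the alveolar type 1 list 6.94 to 7.05 and 9.01 to 9.33, and the club list 7.35 to 8.12 and 11.19 to 11.54, all as log2 values. Their part in the results below was not tested. Of 12 fibroblast and smooth muscle markers 1 was higher and 2 lower, and of 10 leukocyte markers 1 was lower and 9 did not pass. GFP-high replicate 3 lay between the groups for neuroendocrine markers (median shift of -1.74 relative to GFP-negative cells, where GFP-high replicates 1 and 2 had -2.53 and -2.74). It was also the highest GFP-high array for 11 of 12 fibroblast and smooth muscle, 8 of 8 neuroendocrine, 6 of 7 ciliated and 4 of 5 mesothelial markers. The counts were 7 of 10 for alveolar type 2 and 1 of 10 each for alveolar type 1 and club markers. Over all genes this array gave the highest of the 3 values in 34.4%.

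The letters below come from promoter windows that were read for E-box sequences. Zeb and Snai proteins recognise the E-boxes CACCTG and CAGGTG, which are each other's reverse complement, so both strands are covered. Windows of 5 of the 10 genes were read from the RefSeq promoter table (GRCm38.p6): Zeb2, Snai1, Twist1, Epcam and Vim. Windows of Zeb1, Snai2, Cdh1, Cdh2 and Fn1 were not examined, so the matches say nothing about these genes. For the 10 genes, windows on 1 chromosome were skipped, a cut not made in the share over all windows. In the 250 bases before the start, Epcam has 2 matches, Snai1 has 1 and the windows of Zeb2, Twist1 and Vim have none. These 5 genes have 8 windows, as Zeb2 has several. Of the 8 windows 2 hold at least 1 match and 1 holds at least 2. Of all 32851 such windows 17.2% hold at least 1 match and 2.06% at least 2. A match describes the letters and does not show binding. Epcam (chr17:87635729-87635978, plus strand) and Snai1 (chr2:167537945-167538194, plus strand) are printed because they carry the matches, in capitals, beginning 187 and 19 bases before the start of Epcam and 126 before that of Snai1.
Epcam: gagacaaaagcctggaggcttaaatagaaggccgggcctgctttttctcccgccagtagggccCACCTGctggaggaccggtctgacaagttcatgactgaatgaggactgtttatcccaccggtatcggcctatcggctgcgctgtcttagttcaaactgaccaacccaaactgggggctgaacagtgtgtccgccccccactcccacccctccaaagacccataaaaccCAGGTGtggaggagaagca
Snai1: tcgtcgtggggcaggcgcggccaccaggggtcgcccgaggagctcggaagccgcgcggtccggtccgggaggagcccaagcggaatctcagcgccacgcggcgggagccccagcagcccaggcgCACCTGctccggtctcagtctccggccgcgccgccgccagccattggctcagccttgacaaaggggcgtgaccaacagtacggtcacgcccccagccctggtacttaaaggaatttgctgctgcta

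The miR-200 microRNAs are known to bind Zeb1 and Zeb2 transcripts and lower them, and Zeb factors repress the miR-200 genes in turn. Mature forms of several are printed 5′ to 3′ from RefSeq with the seed, bases 2 to 8, in capitals. They fall into seed groups that differ within the seed, with miR-141-3p and miR-200a-3p in the first and miR-200b-3p and miR-200c-3p in the second. The seed of miR-429-3p, which is not printed, is that of the second group.
miR-141-3p: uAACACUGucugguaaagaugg
miR-200a-3p: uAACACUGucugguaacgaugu
miR-200b-3p: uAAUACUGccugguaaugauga
miR-200c-3p: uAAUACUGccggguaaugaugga
On GRCm38.p6 these lie on the minus strand at chr6:124717917-124717938, chr4:156054911-156054932, chr4:156055685-156055706 and chr6:124718324-124718346.

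The 9 genes moved in both directions. Cdh2, Snai2, Zeb1 and Epcam were lower in GFP-high cells, Fn1 was higher, and Cdh1, Vim, Snai1 and Twist1 did not pass. Of the 9 measured genes 1 rose and 4 fell at an adjusted p under 0.05, against 30% of all genes called, 13.0% as higher and 17.0% as lower. Their median log2 fold change was -0.26, where all genes had 0.01. For 7 of the 9 genes the values of the groups were separate, against 44.6% of all genes, and 4 of the 9 changed by at least 1 on the log2 scale, against 11.8%.

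**Figure D1:**
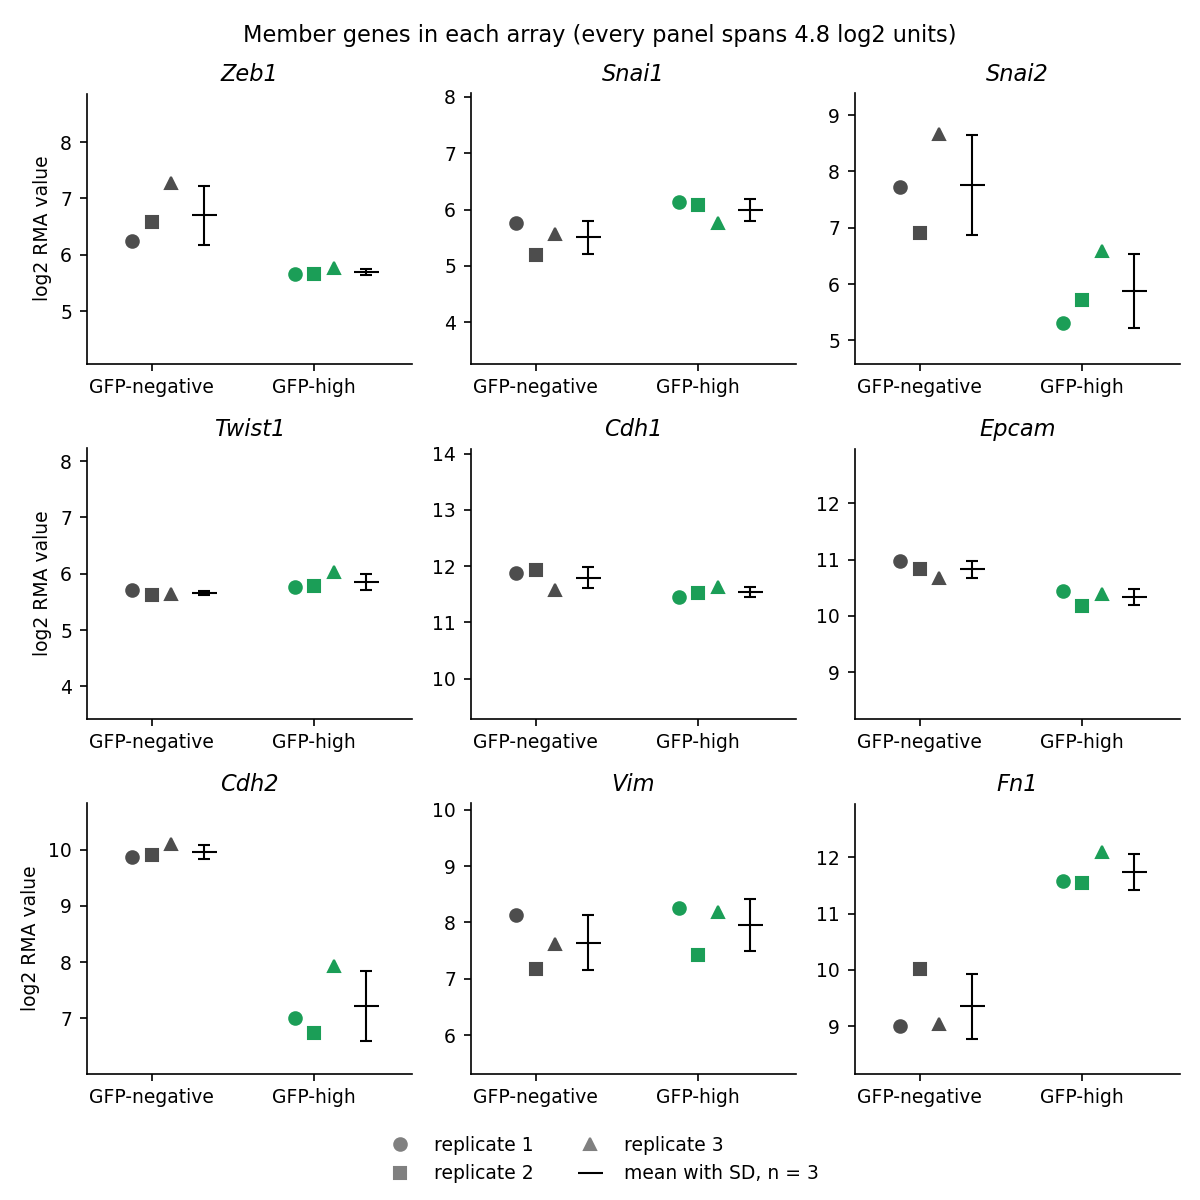
Log2 RMA values of the 9 measured genes in each of the 6 arrays; symbols mark the replicate number, and the bar to the right of each group is its mean with SD (n = 3). Cdh2 and Fn1 show the widest gaps between the groups, in opposite directions, while Cdh1 and Vim overlap.

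Zeb1, a zinc-finger repressor of epithelial genes, fell. Its log2 values were 6.25, 6.58 and 7.28 in GFP-negative replicates 1, 2 and 3 and 5.67, 5.65 and 5.76 in the GFP-high arrays. The GFP-high values lie close together and all below the GFP-negative ones, which spread widely. The log2 fold change was -1.01 ± 0.23 SE (95% interval -1.54 to -0.48), a 2.02-fold lower value, with an adjusted p of 0.0104 by limma. Much of its spread came from GFP-negative replicate 3, and without that array the change was -0.72 with an adjusted p of 0.00763.

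Snai2, which encodes the repressor Slug, fell most among the transcription factors. It read 7.72, 6.90 and 8.66 in GFP-negative and 5.30, 5.71 and 6.59 in GFP-high arrays. The groups are separated by only 0.31, between GFP-negative replicate 2 and GFP-high replicate 3. The difference was -1.89 ± 0.45 SE on the log2 scale (95% interval -2.91 to -0.87; 3.71-fold lower; adjusted p = 0.0121 by limma). Its pooled within-group SD of 0.78 exceeded that of 99.7% of genes, whose median was 0.17. The calls for Zeb1 and Snai2 were lost without moderation of the variances (adjusted p = 0.0946 and 0.119).

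Snai1, encoding Snail, read 5.75, 5.19 and 5.57 in GFP-negative and 6.13, 6.08 and 5.76 in GFP-high arrays. All GFP-high values lay above all GFP-negative values, but by only 0.0063 at the nearest. The difference of 0.49 ± 0.17 SE did not pass (adjusted p = 0.0643 by limma). It passed without GFP-negative replicate 1 (0.61, adjusted p = 0.044), without GFP-high replicate 3 (0.60, adjusted p = 0.0417) and with the dimmest 30% of genes left out (adjusted p = 0.0456). Its change was opposite in sign to that of its relative Slug.

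Twist1, a basic helix-loop-helix factor of mesoderm, varied least. It read 5.70, 5.63 and 5.64 in GFP-negative and 5.76, 5.79 and 6.02 in GFP-high arrays. The difference was 0.20 ± 0.12 SE (95% interval -0.07 to 0.47; adjusted p = 0.25 by limma). These values are near the array medians over all rows (5.30 to 5.43). So are the GFP-high values of Zeb1 (5.65 to 5.76), those of Snai2 in GFP-high replicates 1 and 2 (5.30 and 5.71) and the Snai1 values (5.19 to 6.13).

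Cdh1 stayed at a high signal in both populations. It read 11.87, 11.93 and 11.58 in GFP-negative and 11.46, 11.53 and 11.63 in GFP-high arrays, and the groups overlap. The difference was -0.26 ± 0.13 SE (adjusted p = 0.182 by limma), and its 95% interval of -0.55 to 0.04 bounds the change in this row. A second row for Cdh1 gave -0.13 ± 0.24 SE (adjusted p = 0.746 by limma over all rows), with a wider 95% interval of -0.67 to 0.42.

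Epcam, an epithelial surface glycoprotein, was slightly lower in GFP-high cells. It read 10.97, 10.83 and 10.68 in GFP-negative and 10.44, 10.18 and 10.39 in GFP-high arrays, without overlap. The change was -0.49 ± 0.13 SE (95% interval -0.78 to -0.20; 1.41-fold lower; adjusted p = 0.0192 by limma). The call was lost without GFP-negative replicate 1 (-0.42, adjusted p = 0.0751), without GFP-high replicate 2 (-0.41, adjusted p = 0.066) and without moderation (adjusted p = 0.0559).

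Cdh2 changed most of the 9. It read 9.87, 9.89 and 10.10 in GFP-negative and 7.00, 6.73 and 7.93 in GFP-high arrays. The groups are 1.94 apart at the nearest, and GFP-high replicate 3 is the GFP-high array closest to the GFP-negative ones. The log2 fold change was -2.73 ± 0.27 SE (95% interval -3.36 to -2.11; 6.65-fold lower; adjusted p = 0.000126 by limma), larger in size than that of 98.7% of genes. A second row gave -2.58 ± 0.24 SE (adjusted p = 8.97e-05 by limma over all rows), with 8.28, 8.32 and 8.39 in the GFP-negative and 5.66, 5.24 and 6.34 in the GFP-high arrays. Without GFP-high replicate 3 the change of the main row was -3.09.

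**Figure D2:**
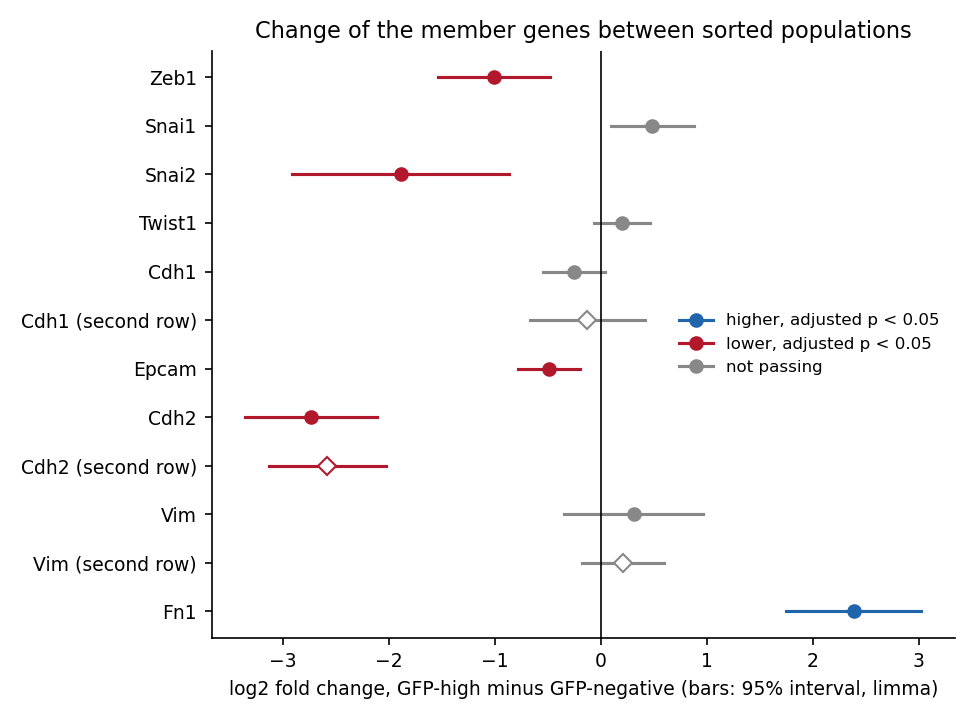
Log2 fold change of each row, GFP-high minus GFP-negative, with its 95% interval from limma (n = 3 per group); open diamonds are second rows of a gene. The rows for Cdh2 lie at -2.73 and -2.58 and Fn1 at 2.39, while the intervals of Cdh1, Vim and Twist1 include 0.

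Within each array the log2 difference Cdh1 minus Cdh2 shows how unequally the cadherins changed. Relative to its GFP-negative mean it was 2.61, 2.95 and 1.86 in GFP-high and 0.16, 0.19 and -0.36 in GFP-negative arrays. The difference moved by 2.48 towards E-cadherin in GFP-high cells, where Cdh2 changed by -2.73 and Cdh1 by -0.26. Neuroendocrine markers fell in the same arrays, least in GFP-high replicate 3, where Cdh2 was also highest among the GFP-high arrays. The part of these markers in the change of Cdh2 was not tested.

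Vim, the intermediate filament of mesenchymal cells, gave no call. It read 8.14, 7.17 and 7.62 in GFP-negative and 8.26, 7.41 and 8.18 in GFP-high arrays. The ranges nearly coincide, and replicate 2 was the lowest of each group. The difference was 0.31 ± 0.29 SE (95% interval -0.34 to 0.96; adjusted p = 0.481 by limma), and a second row gave 0.21 ± 0.17 SE (adjusted p = 0.415 by limma over all rows).

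Fn1, a matrix glycoprotein bound by integrins, was the only one of the 9 that rose. It read 9.01, 10.02 and 9.03 in GFP-negative and 11.58, 11.54 and 12.10 in GFP-high arrays, 1.52 apart at the nearest. The log2 fold change was 2.39 ± 0.28 SE (95% interval 1.75 to 3.02; 5.22-fold higher; adjusted p = 0.000284 by limma), larger than that of 98.0% of genes. GFP-negative replicate 2, highest of its group for Fn1, was also its highest array for 9 of 10 club and 7 of 10 alveolar type 2 markers. It was highest for 3 of 10 alveolar type 1 markers and for 32.9% of all genes. Without this array the change of Fn1 was 2.72. GFP-high replicate 3 was highest for Fn1, and without it the change was 2.20 (adjusted p = 0.00107 by limma). It was also the highest GFP-high array for 11 of 12 fibroblast and smooth muscle, 8 of 8 neuroendocrine and 6 of 7 ciliated markers. The counts were 7 of 10 for alveolar type 2 and 1 of 10 each for alveolar type 1 and club markers, against 34.4% of all genes. Of the 12 fibroblast and smooth muscle markers Acta2 was higher (0.36 ± 0.12 SE, adjusted p = 0.0494 by limma), Dcn (-1.47 ± 0.38 SE) and Thy1 (-0.57 ± 0.17 SE) were lower, and 6 had an unadjusted p under 0.05. The collagen genes among them had positive differences that did not pass: Col1a1 (0.46 ± 0.16 SE, adjusted p = 0.0631), Col1a2 (0.45 ± 0.19 SE, adjusted p = 0.106) and Col3a1 (0.50 ± 0.20 SE, adjusted p = 0.101, all by limma).

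GFP-negative replicate 3 differed from the other GFP-negative arrays across several of these genes. Among the 3 it had the highest Zeb1, Snai2 and Cdh2 and the lowest Cdh1 and Epcam. It was also the lowest GFP-negative array for 9 of 10 epithelial transcription and splicing factors, 7 of 9 catenins and cadherin partners and 10 of 10 club markers, where it is lowest for 34.4% of all genes. Peripherin (Prph) and desmin (Des) were highest there, at 8.66 and 7.06, against 6.71 and 6.13, and 6.07 and 5.70, in replicates 1 and 2. This is a pattern of 1 array, noticed in these values, and has no test.

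Related genes were read from lists chosen with earlier results of these data known, and each count stands against the 30% of all genes called. Among other transcription factors tied to the transition, 1 of 10 rose, 3 fell and 6 did not pass (median -0.24, against 0.01 over all genes). Foxq1, a forkhead factor, rose from 4.85, 5.33 and 5.09 to 9.32, 9.21 and 8.88, by 4.05 ± 0.17 SE. It is the largest change in any list of related genes and lies opposite to Zeb1 and Snai2. Klf8 (-0.59 ± 0.14 SE), Tcf4 (-0.59 ± 0.15 SE), whose product pairs with Twist proteins, and Snai3 (-0.42 ± 0.13 SE) fell. Twist2, Prrx1, Foxc2, Tcf3, Tcf12 and Gsc did not pass, with changes between -0.38 and 0.22. The count of falls was 1 without GFP-negative replicate 3 and 3 without GFP-high replicate 3. It was 2 when any other array was left out.

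Epithelial transcription and splicing factors were mostly higher in GFP-high cells, with 7 of 10 up, 1 down and 2 not passing (median 0.62). The grainyhead-like factors, which support epithelial junction genes, rose together: Grhl2 by 1.37 ± 0.14 SE, Grhl1 by 1.04 ± 0.15 SE and Grhl3 by 1.00 ± 0.17 SE. Grhl2 read 7.70, 7.80 and 7.42 in the GFP-negative and 9.11, 9.08 and 8.86 in the GFP-high arrays. The Ets factor Ehf rose by 0.96 ± 0.15 SE, and Klf5, Esrp2 and Ovol2 rose by 0.63, 0.60 and 0.48. Elf3 fell by 0.45 on the log2 scale, and the count of falls was 2 without GFP-negative replicate 3 and 0 when any other array was left out. Esrp1, a splicing factor of epithelial cells, did not pass (-0.41 ± 0.15 SE, adjusted p = 0.083 by limma). Alveolar and club markers rose in the same arrays, and their part here was not tested.

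Of the 5 measured miR-200 and miR-205 loci 0 passed by limma, and 0 had an unadjusted p under 0.05 (median 0.01). The rows report the precursor loci and not the mature microRNAs printed above. Mir200b changed by 0.25 ± 0.14 SE, Mir200a by 0.02 ± 0.14, Mir200c by 0.01 ± 0.29, Mir141 by -0.27 ± 0.14 and Mir205 by -0.12 ± 0.14, with adjusted p from 0.185 to 0.99 by limma. Mir200c read 5.58, 5.11 and 5.15 in GFP-negative and 4.66, 5.30 and 5.90 in GFP-high arrays, and the GFP-high values span the others. Mir429 was not analysed here.

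Of 20 other cadherins measured, 2 rose, 4 fell and 14 did not pass (median -0.10), a share called no higher than that of all genes. Those that fell were Cdh20 (-2.32 ± 0.33 SE), T-cadherin, Cdh13 (-2.06 ± 0.21), Cdh22 (-1.72 ± 0.21) and R-cadherin, Cdh4 (-1.34 ± 0.11). Cdh20 read 9.41, 9.63 and 9.50 in GFP-negative and 6.97, 6.53 and 8.06 in GFP-high arrays. As for Cdh2, GFP-high replicate 3 gave the highest GFP-high value. M-cadherin (Cdh15), known from muscle, rose by 1.23 ± 0.11 SE and kidney cadherin (Cdh16) by 0.50 ± 0.15 SE. The call for 1 of these rises was lost without GFP-negative replicate 2 or 3, or without GFP-high replicate 1 or 3. The endothelial cadherin Cdh5 (0.04 ± 0.13 SE), the fibroblast cadherin Cdh11 (-0.33 ± 0.29) and P-cadherin, Cdh3 (0.04 ± 0.16), did not pass and are named after their values were seen.

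The catenins link cadherins to actin. Of 9 catenins and partners 3 rose, 2 fell and 4 did not pass (median 0.13). The neuronal alpha-catenin Ctnna2 fell by 2.07 ± 0.16 SE, from 7.93, 7.75 and 7.69 to 5.66, 5.47 and 6.04. Its epithelial counterpart Ctnna1 rose by 0.47 ± 0.12 SE and p120-catenin, Ctnnd1, by 0.69 ± 0.12 SE. Ctnnd2 (0.50 ± 0.16 SE) rose and Ctnnal1 (-0.50 ± 0.13 SE) fell. Beta-catenin, Ctnnb1, which binds both cadherins of the switch, changed by 0.10 ± 0.11 SE (adjusted p = 0.545 by limma) and is named after its value was seen. Leaving out GFP-negative replicate 3, or else GFP-high replicate 2, gave 1 rise, and leaving out GFP-negative replicate 1, or else GFP-high replicate 2, gave 1 fall.

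**Figure D3:**
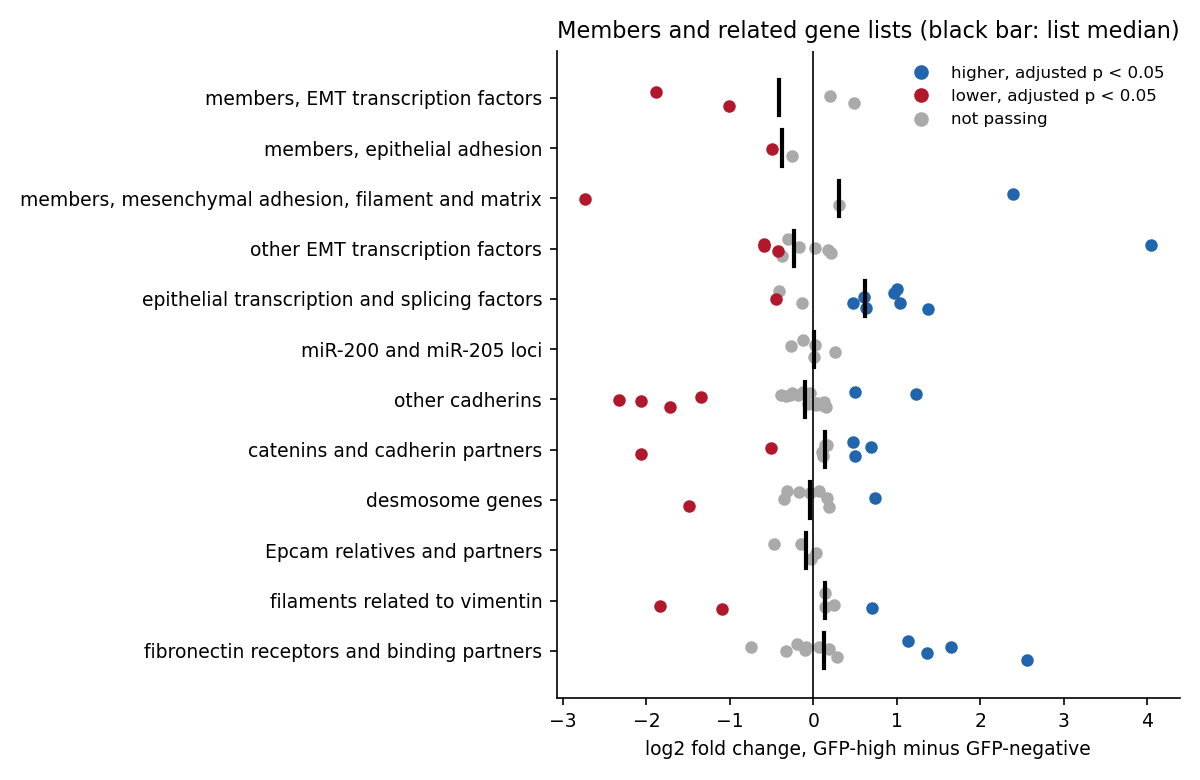
Log2 fold change of every measured gene in the lists of members and related genes, GFP-high minus GFP-negative, with points jittered vertically and a black bar at each list's median. Blue points rose and red points fell at an adjusted p under 0.05; epithelial factors lie mostly to the right, and the falls among other cadherins and Ctnna2 lie near Cdh2.

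Desmosome genes, which anchor keratins at epithelial junctions, gave 1 up, 1 down and 7 not passing of 9 (median -0.03). Desmocollin 2, Dsc2, fell by 1.49 ± 0.25 SE and plakophilin 2, Pkp2, rose by 0.73 ± 0.17 SE. Desmoplakin, Dsp (-0.35 ± 0.15 SE, adjusted p = 0.127 by limma), and Pkp4 (-0.31 ± 0.11 SE, adjusted p = 0.0665 by limma) did not pass. Without GFP-negative replicate 3 the count of falls was 2. Of 4 measured relatives and partners of Epcam 0 passed by limma, and 1 had an unadjusted p under 0.05. Cldn7 changed by -0.47 ± 0.17 SE (adjusted p = 0.0669), the matriptase gene St14 by 0.03 ± 0.13, and the matriptase inhibitors Spint1 and Spint2 by -0.14 ± 0.13 and -0.02 ± 0.13. Without GFP-negative replicate 3 there was 1 fall among them.

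Among filaments related to vimentin 1 of 6 rose, 2 fell and 3 did not pass (median 0.14). Synemin, Synm, rose by 0.70 ± 0.13 SE. Peripherin, a filament of peripheral neurons, fell (-1.83 ± 0.54 SE), as did desmin, of muscle (-1.09 ± 0.35). Their GFP-negative values are those that spread with replicate 3 above, and those of Des overlap between groups. The count of falls was 0 when GFP-high replicate 1 or 2 was left out, and 1 when GFP-negative replicate 1 or 3 or GFP-high replicate 3 was. Gfap (0.14 ± 0.11 SE), Nes (0.14 ± 0.15) and Plec (0.25 ± 0.12) did not pass.

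Receptors and binding partners of fibronectin rose in 4 of 12 and did not pass in 8 (median 0.12). The epithelial integrin subunit Itgb6 rose by 2.56 ± 0.24 SE, from 4.97, 4.54 and 4.25 to 7.50, 6.69 and 7.25. The heparan sulfate proteoglycan Sdc4 rose by 1.65 ± 0.21 SE, the crosslinking enzyme Tgm2 by 1.37 ± 0.17 and Itga5, the alpha subunit of the classical fibronectin receptor, by 1.13 ± 0.15. Its partner subunit Itgb1 changed by -0.11 ± 0.14 SE (adjusted p = 0.619 by limma) and is named after its value was seen. These rises went with that of Fn1 and, in the same arrays, with those of alveolar and club markers; the part of the latter was not tested.

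Profiles most like those of the 3 most changed genes were sought over the 6 arrays among 10270 genes above the median level. Left out were the genes studied here and genes annotated as other than protein-coding. A cut by symbol pattern, meant for unnamed gene models and small RNAs, also removed symbols beginning with Rn. Those closest to Cdh2 were Pcdhb17, a protocadherin (Pearson r = 0.9995), Mb21d2 (0.9993) and the imprinted gene Mest (0.9993). For Fn1 they were D2hgdh (0.9984), the plexin Plxnb2 (0.998) and Igtp (0.996), and for Snai2 Anks6 (0.989), Ankrd34b (0.989) and Pds5a (0.989). The 6 points share the difference between the sorted groups, and 1610 genes had an r above 0.95 with Cdh2, 688 with Fn1 and 114 with Snai2. These values are a description.

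**Figure D4:**
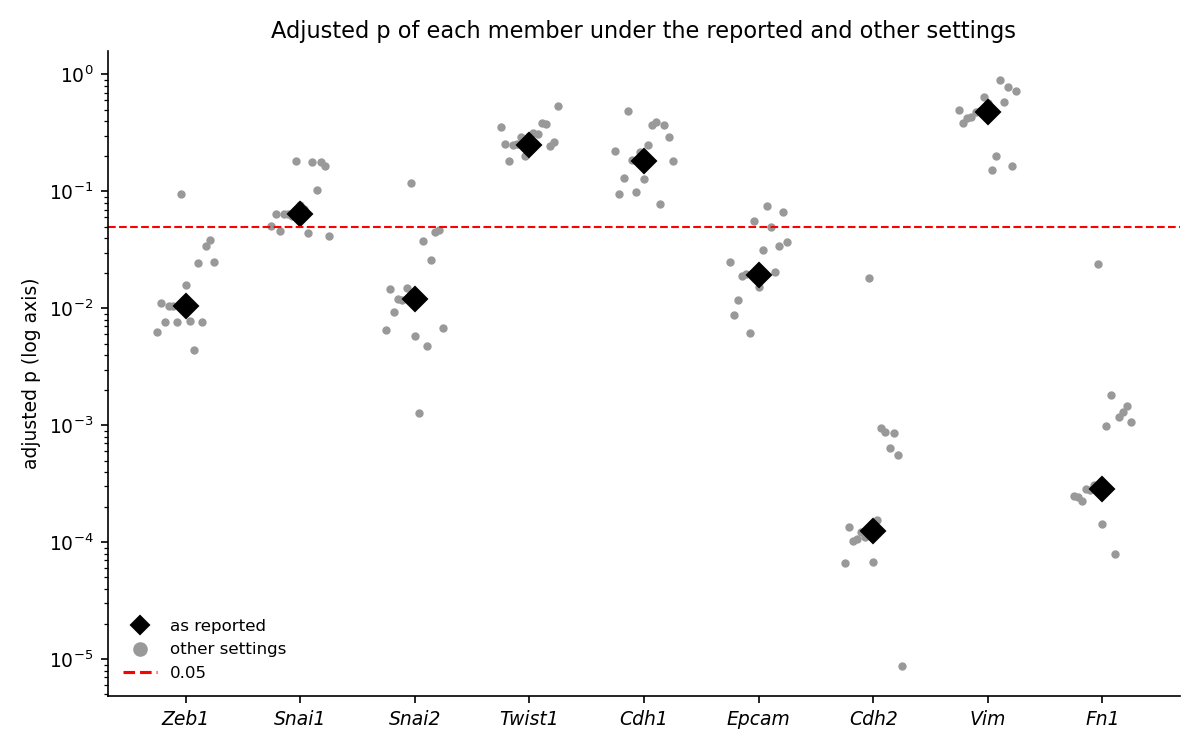
Adjusted p of each of the 9 genes by limma on a log axis, as reported (black diamonds) and under up to 15 other settings (grey points), with 0.05 as a dashed line. Cdh2 and Fn1 lie below the line and Cdh1, Vim and Twist1 above it under every setting drawn, while Snai1, Epcam, Zeb1 and Snai2 have points on both sides.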

How the data were processed

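Expression was measured on 6 arrays, 3 per sorted group. The authors deposited log2 values made with RMA (version not given in the sources used here), per the submitters' processing notes. RMA equalises the arrays' distributions, which hides any shift common to most genes and compresses low values. Of 41344 rows 23520 name exactly 1 gene, 1814 several and 16010 none. Only the first were used, and genes with several rows (1082) took the row with the highest mean. Precision is limited by the number of arrays. Groups were compared with limma 3.58.1 in R 4.3.3 (lmFit, eBayes, no block, no filter), GFP-high minus GFP-negative, two-sided, adjusted by Benjamini-Hochberg over 22179 genes. Calls need an adjusted p under 0.05. Second rows were adjusted over all single-gene rows. A permutation of 3 against 3 cannot go below p = 0.1, so none is given. Named were all 10 genes, the 4 largest changes of each related list (all of lists of up to 6) and the 3 closest profiles of the 3 most changed genes. Other called members of these lists, the named markers and further genes that did not pass were added after their values were seen. The genes and lists were chosen with earlier results of these data known. The limma code was tested on simulated data. Alternatives covered scaling, filters, rows, moderation, array weights, pairing and leaving out each array. Figures used Python 3.11.15 and matplotlib 3.10.9.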

Additional observations from a re-analysis of the deposited data

How the results depend on the processing

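No change of the 9 genes reversed its sign in any of the 15 other settings run. Cdh2 ranged from -3.09 to -2.49 and Fn1 from 2.20 to 2.72, and both passed in all of them. The number of the 9 genes called was 5, and 2 without moderation (1 of them lower), a fit that estimates each spread from 4 residual degrees of freedom. The number higher was 1, and 2 with the lowest 30% of genes left out, the second being Snai1. Leaving out each array in turn gave 1 to 2 higher, 3 to 4 lower and 4 to 6 called in all. Same-numbered arrays of the groups correlated at 0.11, -0.03 and -0.0016 in their deviations from the group means. The labels do not say whether same-numbered samples share a pool, and these correlations cannot decide it. With the replicate number as a block 5 of the 9 and 6172 of all genes were called, against 6661 without it. With 3 arrays per group, changes of the size seen for Cdh1, Twist1 and Vim cannot be told from 0.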

Other observations

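Some markers of other cell types are given here as values chosen after they were seen. Decorin (Dcn), a fibroblast proteoglycan, read 10.41, 11.18 and 10.71 in GFP-negative and 8.77, 8.86 and 10.26 in GFP-high arrays, lower by limma (-1.47 ± 0.38 SE, adjusted p = 0.0175). Of the 12 fibroblast and smooth muscle markers Thy1 was also lower (-0.57 ± 0.17 SE, adjusted p = 0.0342 by limma), Acta2 was higher (0.36 ± 0.12 SE, adjusted p = 0.0494 by limma) and 9 did not pass. The GFP-negative mean of Dcn was 10.77, and those of the other markers of this list ran from 3.22 (Lum) to 6.32 (Acta2). The VEGF receptor gene Kdr rose by 3.87 ± 0.13 SE and von Willebrand factor, Vwf, was lower (-2.07 ± 0.23 SE), while the endothelial genes Pecam1, Cdh5 and Tie1 did not pass. The GFP-negative mean of Vwf was 10.14, and those of the other endothelial markers ran from 2.76 (Emcn) to 5.85 (Kdr). Of 5 mesothelial markers 4 rose (median 0.64), against 13.0% of all genes called higher, among them Upk3b (0.85 ± 0.19 SE) and Msln (0.64 ± 0.16 SE). Their levels were low, where the array medians over all rows are 5.30 to 5.43. GFP-negative and GFP-high means were 5.42 and 6.27 for Upk3b, 5.14 and 5.78 for Msln, 3.89 and 4.55 for Lrrn4, and 3.29 and 3.93 for Muc16.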
